A study of Homo sapiens with 27 samples.

Results

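The complement genes described here are 9 of the 55882 gene symbols counted in each library, namely the classical pathway proteases C1R and C1S, the central component C3, the alternative pathway genes CFB and CFD, and the regulators CFI, CD46, CD55 and CD59. They were taken by symbol as a fixed list, and all 9 were present and passed the filter on low counts in every comparison. Poly(A) RNA was sequenced from U2OS cells, a human osteosarcoma line, in 27 libraries. One line carried the empty pLKO.1 vector (control, called WT in the labels), and 2 lines, MMP2sh1 (MMP2KD_23) and MMP2sh2 (MMP2KD_26), carried short hairpin RNAs against MMP2, the gene of matrix metalloproteinase 2. Each line was collected while subconfluent (day −2), at confluence (day 0) and when overconfluent (day +2), with 3 libraries in each of the 9 groups. The paper describes all lines as stably transduced, with puromycin selection. By that account the controls share vector and selection with the hairpin lines, which the label WT does not show. The methods describe transduced lines and no single-cell cloning, and 1 line stands for each hairpin, so that a hairpin and the line that carries it cannot be told apart. The libraries of a group are described in the paper as independent biological replicates.

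Complement is a cascade of blood proteins that marks surfaces for removal and can perforate membranes. In the classical pathway, C1q binds antibody or damaged surfaces and activates the proteases C1r and C1s, which lead to cleavage of C3. In the alternative pathway, factor D cleaves factor B bound to C3b, and the resulting convertase cleaves more C3. Host cells hold the cascade in check. Factor I degrades C3b with cofactors such as CD46, CD55 speeds the decay of convertases, and CD59 blocks assembly of the terminal pore. Although the liver makes most circulating complement, many mesenchymal cells, osteoblasts among them, transcribe complement genes, and the membrane regulators are found on most cells.

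The depth behind these values ranged from 33580129 to 59374327 counts on genes per library (median 40075178). MMP2 itself was at 0.173, 0.181 and 0.198 of its control level in MMP2sh1 at days −2, 0 and +2, and at 0.617, 0.481 and 0.568 in MMP2sh2. It was called lower in both lines at each day. The 10 mesenchymal and osteoblast markers listed differed widely in level over group means. COL1A1 ranged from 1111 to 1433 CPM (counts scaled to library size), SPARC from 1186 to 2064, VIM from 694 to 824 and COL5A1 from 215 to 285. Lower were RUNX2 (32.8 to 62.0 CPM), SPP1 (6.88 to 23.8) and ALPL (0.970 to 5.87). BGLAP stayed at or below 0.275 CPM and COL1A2 at or below 0.394. IBSP, a marker of mature osteoblasts, had no read in any library. The 8 leukocyte and macrophage markers listed summed to between 1.02 and 3.07 CPM in a library. The 8 hepatocyte markers summed to between 78.6 and 88.6 CPM in the subconfluent control, 98.5 and 100.2 CPM at confluence, and 304 and 319 CPM when overconfluent, nearly all of it SERPINA1, which was highest in overconfluent MMP2sh1 (443 CPM). Without SERPINA1 the sum was at most 2.93 CPM, and FGB had no read. The 6 epithelial markers, mostly KRT8 and KRT18, summed to between 515 and 562 CPM in the subconfluent control and between 391 and 416 CPM in the overconfluent control, where 4 of 5 tested were called lower. They summed to between 734 and 804 CPM in subconfluent MMP2sh1, where 3 of 5 were called higher than in the control, and to between 627 and 733 CPM in subconfluent MMP2sh2, where 1 was called higher and 1 lower. By day +2 the sums were between 446 and 459 CPM in MMP2sh1 (4 of 5 called lower than on day −2) and between 422 and 428 CPM in MMP2sh2 (2 of 5). Over all genes, 28.6% were lower on day +2 than on day −2 in the control, 27.7% in MMP2sh1 and 27.1% in MMP2sh2. Against control on day −2, 5.42% were higher in MMP2sh1, and 4.71% were higher and 6.33% lower in MMP2sh2. The part of these markers in the results below was not tested. In such bulk libraries, fewer cells of a type and less RNA per cell cannot be told apart.

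On GRCh37, the build that the submitters name hg19, C1R lies on chromosome 12 from 7187513 to 7245203 (minus strand) and C1S on the same chromosome from 7096351 to 7178336 (plus strand). C3 lies on chromosome 19 from 6677715 to 6730573 (minus strand, 41 exons) and CFD from 859453 to 867884 (plus strand, 5 exons). CFB lies on chromosome 6 from 31913427 to 31919863 (plus strand), where 42.8% of its exon length overlapped other annotated genes, C2 among them. CFI lies on chromosome 4 from 110652164 to 110723306 (minus strand, 13 exons), with 29.4% of its exon length shared. CD46 and CD55 lie on chromosome 1 from 207925382 to 207968858 and from 207494864 to 207560149 (plus strand), and CD59 lies on chromosome 11 from 33724556 to 33758025 (minus strand). Because reads were counted without strand and reads on several genes were set aside, the absolute levels of CFB and CFI are less certain than those of CD55, which shared no exon. Within C1R, GRCh37 holds 50000 unknown bases (from 7189877 to 7239876). The effect of this gap on its counts was not tested.

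Compared per kilobase of 1 chosen transcript per gene, the membrane regulators led. The order depends on that choice, as reads were counted over all exons of a gene. The chosen transcripts of CD46, CD59, CD55 and CFD hold 3320, 7563, 2590 and 1191 bases. All their annotated exons span 15505, 10557, 10254 and 1818 bases. For C1R, no canonical transcript was marked, and the longest candidate (2112 bases) was taken. Levels per kilobase of all exons were not computed. In the subconfluent control, CD46 stood at 40.9 ± 0.583 CPM per kb (SD, n = 3), CD59 at 21.5 ± 0.378, CD55 at 12.8 ± 0.751, CFD at 9.46 ± 2.57, C1R at 4.44 ± 0.374 and C1S at 3.02 ± 0.0678. CFI at 0.805 ± 0.122 and C3 at 0.798 ± 0.124 did not differ beyond their spread, and CFB was lowest at 0.436 ± 0.0819. The libraries of CD55 (12.1 to 13.6) and CFD (7.56 to 12.4) overlapped. By day +2 the order had changed below the first 2 places. CFI had reached 16.2 ± 0.418 CPM per kb and C1R 14.7 ± 0.964, both above CD55 at 7.46 ± 0.153, whereas CFD had dropped to 3.52 ± 0.344, where its libraries (3.31 to 3.92) overlapped those of C1S (3.59 to 4.15).

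The sequences upstream of 4 members are shown so that their base composition can be seen beside their levels. CFI, C1R and CFD had the largest changes from day −2 to day +2 in the control, and CD46 was the member called in both interactions of line and day. They are the 250 bases before the RefSeq transcription start, read 5′ to 3′ on the gene's strand, from GRCh38.p14, a later build than the one counted on: CFI at chr4:109802000-109802249 (minus strand), C1R at chr12:7092446-7092695 (minus strand, the first of its 2 entries), CFD at chr19:859414-859663 (plus strand) and CD46 at chr1:207751788-207752037 (plus strand, the first of 2). Capitals mark matches, on either strand, to the 7 motifs that were searched. The core promoter elements among them were the TATA box with the letters TATAAA, the box known by its letters CCAAT, and the GC box with the letters GGGCGG. The gamma-activated site, which STAT factors bind, was searched as TTCNNNGAA and the core bound by C/EBP factors as TTGCNNAA. The AP-1 site was searched as TGACTCA and the site of TEAD factors as GGAATG.
CFI: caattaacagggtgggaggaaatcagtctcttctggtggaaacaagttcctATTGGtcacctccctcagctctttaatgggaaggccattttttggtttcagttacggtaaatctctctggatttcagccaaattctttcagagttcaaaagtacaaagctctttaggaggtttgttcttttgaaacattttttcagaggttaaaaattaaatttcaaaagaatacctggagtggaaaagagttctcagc
C1R: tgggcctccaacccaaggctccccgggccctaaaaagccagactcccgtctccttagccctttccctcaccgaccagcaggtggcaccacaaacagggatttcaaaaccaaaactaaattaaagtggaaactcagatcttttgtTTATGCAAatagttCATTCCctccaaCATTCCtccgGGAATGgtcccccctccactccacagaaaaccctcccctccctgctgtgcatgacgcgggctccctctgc
CFD: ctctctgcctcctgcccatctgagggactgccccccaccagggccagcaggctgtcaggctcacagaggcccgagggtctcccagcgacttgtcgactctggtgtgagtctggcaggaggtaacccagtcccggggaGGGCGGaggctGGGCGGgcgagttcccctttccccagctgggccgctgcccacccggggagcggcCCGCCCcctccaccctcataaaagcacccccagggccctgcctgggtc
CD46: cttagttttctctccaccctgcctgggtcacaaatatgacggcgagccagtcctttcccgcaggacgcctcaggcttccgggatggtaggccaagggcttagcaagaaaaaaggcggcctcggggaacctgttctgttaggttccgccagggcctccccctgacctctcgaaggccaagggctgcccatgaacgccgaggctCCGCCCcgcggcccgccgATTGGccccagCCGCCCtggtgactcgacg
The CFI sequence, at 38% GC with 1 CpG, lies below the median of 58% over 35116 promoter entries, and its single match is a CCAAT box on the opposite strand, a motif that 32.0% of all entries hold. C1R at 54% GC held 1 C/EBP core (9.05% of all entries) and 3 TEAD motifs (11.9% of all entries hold at least 1). CFD at 70.8% GC held 3 GC boxes, and CD46 at 64.8% GC held 2 GC boxes and 1 CCAAT box. GC boxes were present in 42.6% of all entries. The AP-1 letters, in 4.20% of all entries, had no match in these 4 windows and 1 in the last entry of CD59. The gamma-activated site, in 6.57% of all entries, had no match in these 4 windows. It had 1 in that of CFB, which also held a TATA box (10.7% of all entries), in 2 of the 4 entries of CD59 and in the second entry of C1R. The table had entries for 7 of the 9 members, not for C1S and C3. A match is a run of letters and not evidence of binding.

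Complement transcripts changed in both directions as the control cells went from subconfluent to overconfluent. Of the 9 members, 5 were called higher (C1R, C1S, CFI, CD46 and CD59) and 2 lower (CFD and CD55) at day +2 against day −2, beside 56.8% of all 19099 genes tested that were called, 28.1% higher and 28.6% lower, and the median log2 fold change was 0.34 over the members and 0.03 over all genes. From day −2 to day 0, 3 members were called higher and 4 lower (35.5% of all genes, 16.4% higher and 19.1% lower), and from day 0 to day +2, 6 were called higher and 2 lower (41.4% of all genes, 21.3% higher and 20.1% lower). The plot of levels by day shows members that rose, members that fell and members that dipped at confluence.

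**Figure D1:**
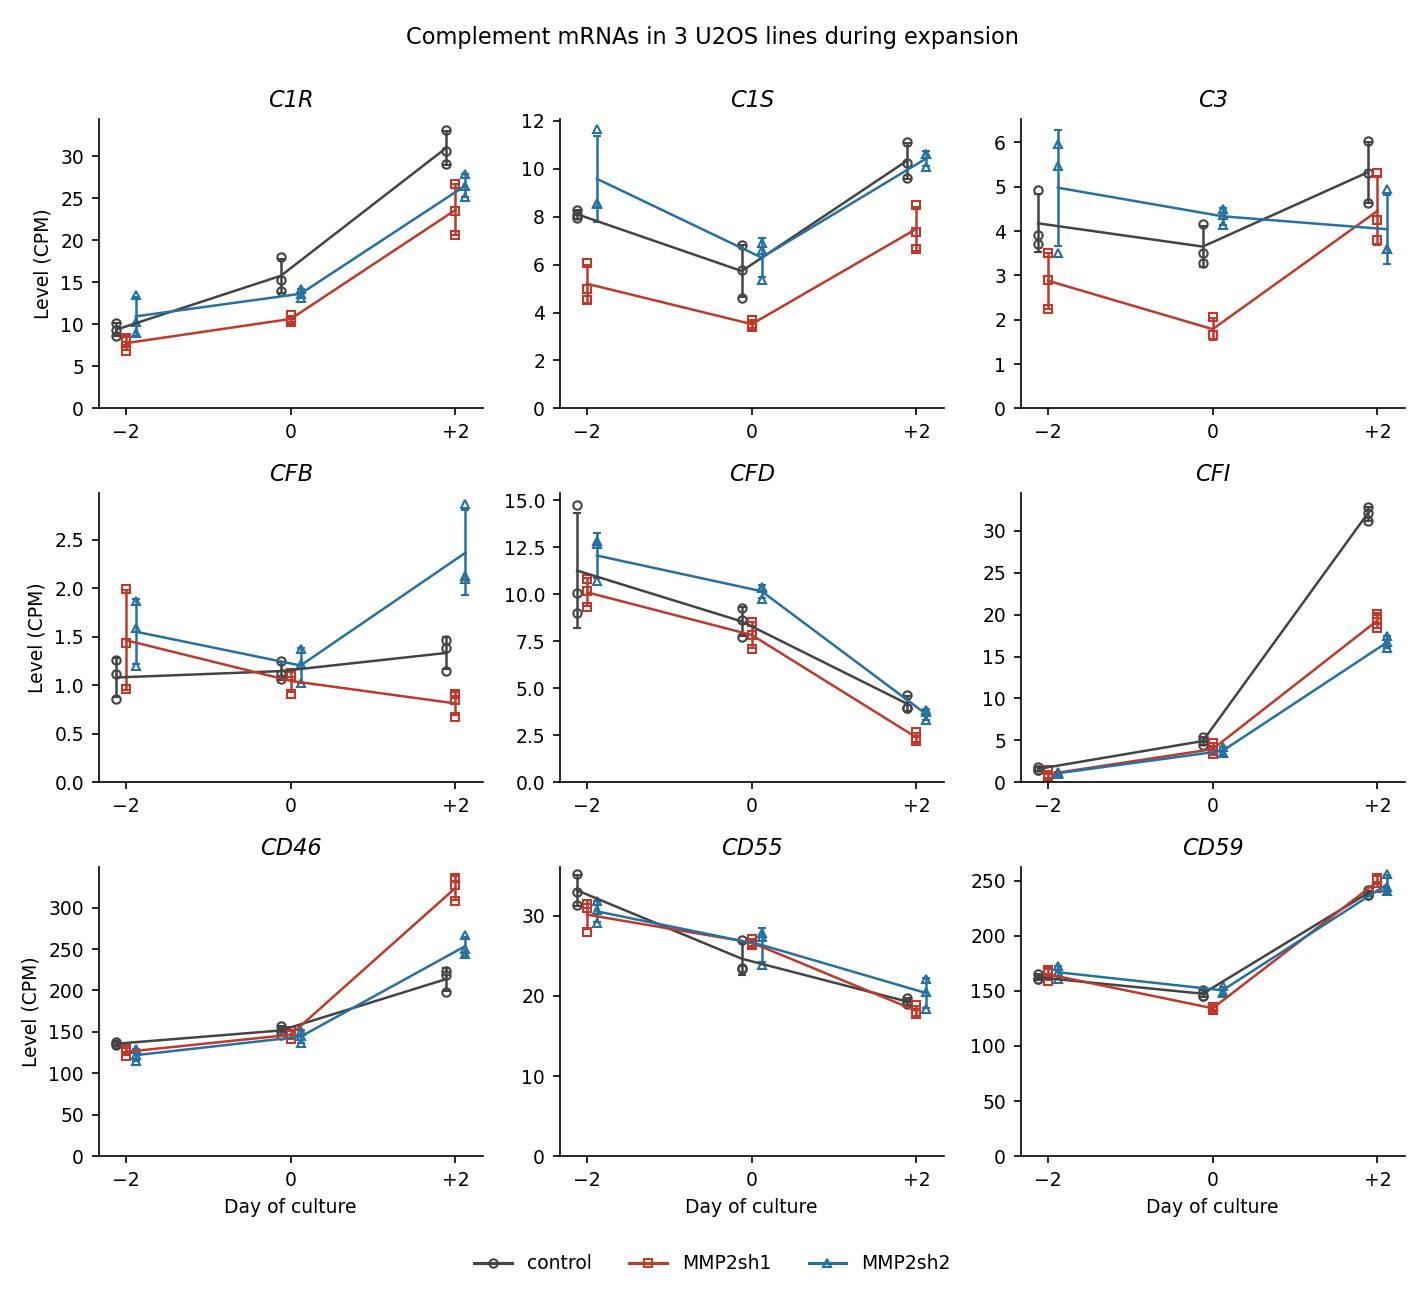
Levels of the 9 complement mRNAs in CPM (y axis, from 0) by day of culture (x axis) for control, MMP2sh1 and MMP2sh2. Open symbols are single libraries (3 per group), and lines join group means with SD bars. CFI rose most, from 1.59 to 32.0 CPM in the control, while CFD and CD55 declined in each line.

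CFI, the protease that degrades C3b and C4b, rose most. In the control it was at 1.42, 1.49 and 1.87 CPM in the 3 libraries of day −2, at 4.92, 5.44 and 4.41 on day 0 and at 31.2, 32.1 and 32.8 on day +2. No library of one day reached the values of the next, and the steepest step came after confluence. The log2 fold change from day −2 to day +2 was 4.34 ± 0.12 (SE, adjusted p = 7.5e-21), a 20.2-fold rise. It comprised a 3.12-fold rise before confluence (adjusted p = 4.6e-07) and a 6.52-fold rise after it (adjusted p = 1.7e-19). Each adjusted p given here and below is that of the edgeR quasi-likelihood F test after Benjamini and Hochberg.

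C1R and C1S, whose products act together in the C1 complex, did not follow one course. C1R was at 10.2, 9.29 and 8.63 CPM on day −2, at 15.3, 14.0 and 18.0 on day 0 and at 30.7, 29.1 and 33.1 on day +2, so that it rose at each step without overlap (log2 fold change 1.70 ± 0.09 over the whole period, adjusted p = 8.7e-15). C1S was at 8.09, 8.30 and 7.94 CPM on day −2, at 4.62, 6.82 and 5.76 on day 0 and at 10.2, 9.63 and 11.1 on day +2. It thus fell at confluence (−0.50 ± 0.15, adjusted p = 0.0080) and rose beyond its starting level later (0.85 ± 0.14 from day 0 to day +2, adjusted p = 1.1e-05, and 0.33 ± 0.12 over the whole period, adjusted p = 0.017). The fall at confluence was not called without library 1 of day 0 (−0.36), nor the net rise without library 3 of day +2 (0.27).

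C3, the component on which the pathways converge, held 3.71, 3.90 and 4.92 CPM on day −2, 4.17, 3.27 and 3.51 on day 0 and 5.30, 6.02 and 4.64 on day +2. Only the last step was called (0.55 ± 0.18, adjusted p = 0.013), and not without library 2 of day 0 (0.48) or library 2 of day +2 (0.45). The whole change was 0.34 ± 0.17 (adjusted p = 0.098), and it was called without library 3 of day −2 (0.47). CFB, which provides the protease subunit of the alternative C3 convertase, was the weakest transcript, at 1.26, 1.11 and 0.863 CPM on day −2 and at 1.47, 1.38 and 1.14 on day +2. These libraries overlap, the change was 0.28 ± 0.34 (adjusted p = 0.51), and with 28 to 120 counts per library over the study its estimate is less precise than the others.

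CFD, or adipsin, the protease that cleaves factor B, moved the opposite way to CFI. It was at 9.01, 10.0 and 14.7 CPM on day −2, at 9.29, 8.64 and 7.75 on day 0 and at 3.98, 4.67 and 3.94 on day +2. The day −2 libraries were scattered and overlapped those of day 0, while those of day +2 lay below both. The log2 fold change was −1.43 ± 0.16 over the whole period (adjusted p = 3.0e-08) and −0.38 ± 0.14 at confluence (adjusted p = 0.038), where the call was lost without library 3 of day −2 (−0.14), or without library 1 (−0.45), 2 (−0.39) or 3 (−0.32) of day 0.

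Among the membrane regulators, CD46, the cofactor for factor I, was at 138, 135 and 134 CPM on day −2, at 147, 157 and 151 on day 0 and at 224, 219 and 198 on day +2, a rise at each step without overlap (0.64 ± 0.05 in all, adjusted p = 1.8e-11). CD55, the decay-accelerating factor, declined from 35.2, 33.0 and 31.3 CPM through 23.4, 27.03 and 23.5 to 19.3, 19.7 and 18.9. Its days did not overlap either, and the change was −0.80 ± 0.08 (adjusted p = 9.2e-10). CD59, the inhibitor of the terminal pore, went from 166, 161 and 160.3 CPM to 146, 151 and 146 at confluence and then to 237, 241 and 237. The dip (−0.14 ± 0.04, adjusted p = 0.016) was small and was not called without library 1 of day −2 (−0.13) or library 1 of day 0 (−0.13), whereas the later rise (0.70 ± 0.05, adjusted p = 8.9e-14) left no overlap. The 2 glycolipid-anchored regulators CD55 and CD59 therefore ended on opposite sides of their starting levels.

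The same course was measured in both hairpin lines for most members, as the plot of changes during expansion shows. In MMP2sh1, 6 members were called higher and 2 lower at day +2 against day −2 (54.9% of all genes, 27.3% higher and 27.7% lower), and in MMP2sh2, 4 higher and 2 lower (54.7% of all genes, 27.7% higher and 27.1% lower). From day −2 to day 0, MMP2sh1 had 3 higher and 4 lower (32.7% of all genes, 15.0% higher and 17.7% lower) and MMP2sh2 3 higher and 1 lower (30.3% of all genes, 13.9% higher and 16.4% lower). From day 0 to day +2, each line had 6 higher and 2 lower. The shares of all genes were 46.0% in MMP2sh1 (23.1% higher and 23.0% lower) and 45.5% in MMP2sh2 (22.5% higher and 23.0% lower).

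**Figure D2:**
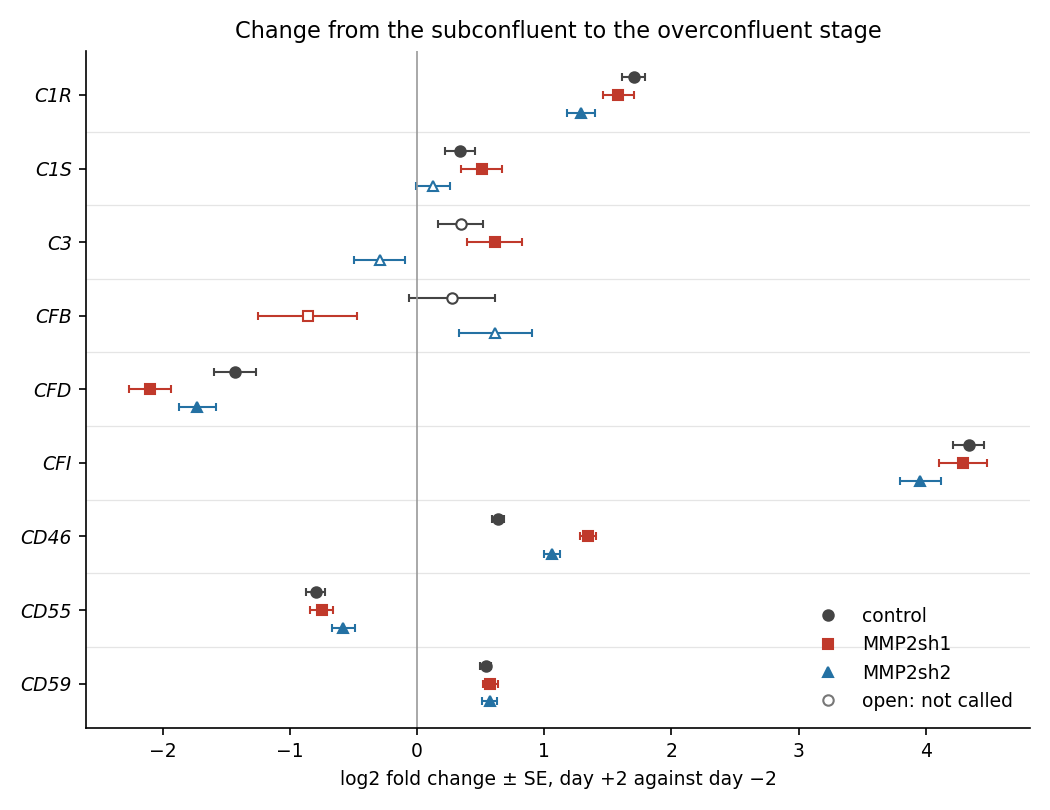
Log2 fold change from day −2 to day +2 with its SE (x axis) for each of the 9 members (y axis) in control, MMP2sh1 and MMP2sh2, with filled symbols for adjusted p under 0.05. CFI stands at 4.34, 4.29 and 3.96, and CD46 at 0.64, 1.34 and 1.06, where the lines separate.

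CFI rose from 0.702, 0.772 and 1.44 CPM on day −2 to 20.1, 19.4 and 18.4 on day +2 in MMP2sh1 (4.29 ± 0.19, adjusted p = 4.0e-15) and from 0.958, 1.06 and 1.24 to 16.0, 17.4 and 16.7 in MMP2sh2 (3.96 ± 0.16, adjusted p = 9.3e-20). C1R rose by 1.58 ± 0.12 in MMP2sh1 (adjusted p = 9.3e-11) and by 1.29 ± 0.11 in MMP2sh2 (adjusted p = 1.9e-11). CFD fell by 2.10 ± 0.16 on the log2 scale in MMP2sh1 (adjusted p = 1.5e-10) and fell by 1.73 ± 0.15 in MMP2sh2 (adjusted p = 8.8e-12). CD55 and CD59 kept close to the control course, at −0.75 and 0.58 in MMP2sh1 and at −0.58 and 0.57 in MMP2sh2, each called. In confluent against subconfluent MMP2sh2, CD59 was at −0.13 ± 0.05 (adjusted p = 0.052) and was called without library 3 of day −2 (−0.17). CD55 in MMP2sh1 over the same step (−0.18 ± 0.08, adjusted p = 0.091) was called without library 1 of day −2 (−0.23).

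The course of C3 is given for each hairpin line on its own, since the difference between their courses was not tested. In MMP2sh1 C3 dropped from 2.24, 2.90 and 3.50 CPM to 2.07, 1.64 and 1.65 at confluence and then reached 3.81, 4.24 and 5.32. In MMP2sh2 it was at 3.50, 5.96 and 5.48, then at 4.14, 4.51 and 4.35, and at 4.94, 3.60 and 3.58 on day +2, where libraries of the 3 days overlapped. The rise after confluence was 1.30 ± 0.21 in MMP2sh1 (adjusted p = 2.1e-05) and was not called in MMP2sh2 (−0.10 ± 0.18, adjusted p = 0.71). The net change in MMP2sh1 (0.61 ± 0.22, adjusted p = 0.022) lost its call without library 1 of day −2 (0.46) or library 3 of day +2 (0.47), and the net change of −0.29 ± 0.20 in MMP2sh2 (adjusted p = 0.22) was called without library 1 of day −2 (−0.52). The drop at confluence in MMP2sh1 (−0.68 ± 0.25, adjusted p = 0.039) was called in 2 of the 6 fits that left out 1 library, and not without library 2 (−0.68) or 3 (−0.52) of day −2 or library 2 (−0.62) or 3 (−0.63) of day 0. The interactions of line and day for C3 were not called (0.28 ± 0.28 in MMP2sh1, adjusted p = 0.65, and −0.64 ± 0.27 in MMP2sh2, adjusted p = 0.19), and these compare each hairpin line with the control over days −2 and +2, not one hairpin line with the other.

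C1S dipped at confluence in each hairpin line too. It was at 4.53, 5.00 and 6.08 CPM on day −2, 3.41, 3.71 and 3.44 on day 0 and 8.47, 7.37 and 6.65 on day +2 in MMP2sh1, and at 8.57, 11.7 and 8.53, then 6.62, 6.89 and 5.38, then 10.6, 10.6 and 10.1 in MMP2sh2. The dip was −0.56 ± 0.17 in MMP2sh1 (adjusted p = 0.016) and −0.60 ± 0.15 in MMP2sh2 (adjusted p = 0.0031), and the rise that followed 1.09 ± 0.16 (adjusted p = 3.5e-06) and 0.74 ± 0.13 (adjusted p = 3.1e-05). The net change of C1S in MMP2sh2 was not called (0.12 ± 0.13, adjusted p = 0.45). In MMP2sh1 the dip lost its call without library 3 of day −2 (−0.44) or library 1 of day 0 (−0.54), and the net rise (0.51 ± 0.16, adjusted p = 0.011) without library 1 of day +2 (0.41). In MMP2sh2, C1R at confluence (0.34 ± 0.12, adjusted p = 0.036) was called in 1 of 6 such fits, and its value fell to 0.22 without library 1 of day −2. CFD at confluence in MMP2sh1 (−0.36 ± 0.12, adjusted p = 0.028) was called in 3 of 6, with −0.31 without library 3 of day −2, and −0.36 and −0.30 without library 2 or 3 of day 0.

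CFB went apart. In MMP2sh1 it was at 1.43, 0.965 and 1.99 CPM on day −2 and at 0.912, 0.848 and 0.677 on day +2, and in MMP2sh2 at 1.87, 1.2001 and 1.59 on day −2, 1.02, 1.22 and 1.37 on day 0 and 2.13, 2.09 and 2.87 on day +2. The rise from day 0 to day +2 in MMP2sh2 was called (0.98 ± 0.28, adjusted p = 0.0051). Its changes over the whole period were not, at −0.86 ± 0.39 in MMP2sh1 (adjusted p = 0.065) and 0.62 ± 0.28 in MMP2sh2 (adjusted p = 0.067). Without library 2 of day −2 the first was called (−1.10), and without library 1 of day −2 the second (0.76). The fall in MMP2sh1 was also called in 1 fit to all 27 libraries by edgeR (adjusted p = 0.016) and DESeq2 (adjusted p = 0.015), and with at least 10 counts per library (adjusted p = 0.042).

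CD46 was the member whose change during expansion differed from the control. Its level at day +2 was 308, 327 and 336 CPM in MMP2sh1 and 244, 249.97 and 266 in MMP2sh2, from 129.9, 127 and 121 and from 129, 122 and 115 on day −2. The libraries of both hairpin lines lay above every control library on day +2, and below every control library on day −2. The interaction of line with the change from day −2 to day +2 was 0.71 ± 0.08 for MMP2sh1 (adjusted p = 2.0e-07) and 0.42 ± 0.08 for MMP2sh2 (adjusted p = 0.00072), and it was called in each fit that left out 1 library. It was the only member called in either interaction, beside 7.40% of all genes for MMP2sh1 (4.52% higher and 2.88% lower) and 4.98% for MMP2sh2 (2.71% higher and 2.28% lower). Among members not called, CFD in MMP2sh1 (−0.66 ± 0.24, adjusted p = 0.095) was called without library 3 of the control on day −2 (−0.90), and C1R in MMP2sh2 (−0.42 ± 0.15, adjusted p = 0.11) without library 1 of that line on day −2 (−0.53).

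Both hairpin lines had less CFI and more CD46 than the control when overconfluent, and in MMP2sh1 the classical pathway genes were lower as well. In MMP2sh1, 1 of 9 members was called on day −2, and it was lower (11.6% of all genes, 5.42% higher and 6.14% lower). On day 0, 4 were called, all lower (16.8% of all genes, 8.26% higher and 8.58% lower). On day +2, 4 were called lower and 1 higher (14.8% of all genes, 7.68% higher and 7.11% lower). In MMP2sh2, 0 were called on day −2 (11.0% of all genes, 4.71% higher and 6.33% lower) and 0 on day 0 (12.9% of all genes, 7.07% higher and 5.81% lower). On day +2, 1 was called lower and 1 higher (6.32% of all genes, 2.89% higher and 3.43% lower). The zero counts are those of edgeR on the libraries compared. At an unadjusted p under 0.05 the members were CD46 on day −2 and C1R and CFI on day 0. DESeq2 on the same libraries called CD46 on day −2 (−0.17, adjusted p = 0.030) and none on day 0. On day −2 edgeR also called CD46 in 1 fit to all 27 libraries (adjusted p = 0.033) and with at least 10 counts in every library (adjusted p = 0.040). The median log2 fold change of the members on day +2 was −0.39 in MMP2sh1 and 0.02 in MMP2sh2, beside −0.0023 and −0.00075 over all genes tested. The comparisons of the 2 lines share their control libraries, so their values are given side by side and no overlap between them is counted.

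**Figure D3:**
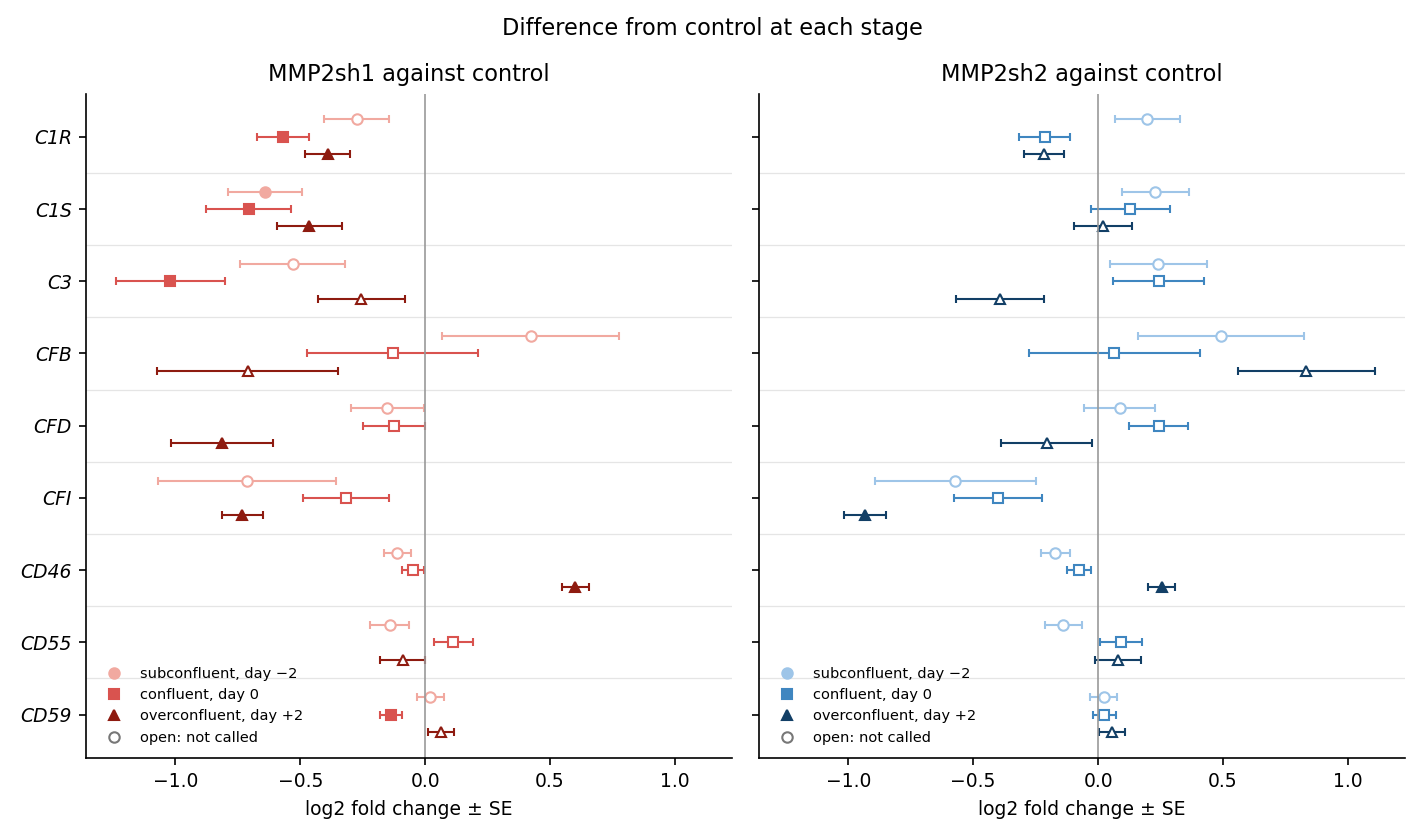
Log2 fold change against control with its SE (x axis) for each of the 9 members (y axis), for MMP2sh1 (left) and MMP2sh2 (right) on days −2, 0 and +2, with filled symbols for adjusted p under 0.05. On day +2, CFI is at −0.73 and −0.93 and CD46 at 0.60 and 0.25.

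On day +2, the CFI libraries given above (18.4 to 20.1 CPM in MMP2sh1 and 16.0 to 17.4 in MMP2sh2) lay below all control libraries (31.2 to 32.8). CFI was at 0.602 of the control level in MMP2sh1 (−0.73 ± 0.08, adjusted p = 8.6e-08) and at 0.524 in MMP2sh2 (−0.93 ± 0.08, adjusted p = 5.0e-11). Differences of similar size on day −2 (−0.71 ± 0.36, adjusted p = 0.22, and −0.57 ± 0.32, adjusted p = 0.29) were not called, at 26 to 82 counts per library. In 1 fit to all 27 libraries that of MMP2sh1 was called by edgeR (adjusted p = 0.016) and DESeq2 (adjusted p = 0.0075), and that of MMP2sh2 by DESeq2 (adjusted p = 0.036). In the confluent lines they were −0.32 ± 0.17 (adjusted p = 0.23) and −0.40 ± 0.18 (adjusted p = 0.14). The interaction of CFI with expansion was not called in either line (−0.03 ± 0.25, adjusted p = 0.97, and −0.38 ± 0.20, adjusted p = 0.32).

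CD46 on day +2 was at 1.52 times the control in MMP2sh1 (0.60 ± 0.06, adjusted p = 2.7e-09) and at 1.19 times in MMP2sh2 (0.25 ± 0.05, adjusted p = 0.0012). On day −2 it was −0.11 ± 0.05 in MMP2sh1 (adjusted p = 0.21) and −0.17 ± 0.06 in MMP2sh2 (adjusted p = 0.054). The latter was called without library 1 of MMP2sh2 (−0.22). On day 0 the libraries of the 3 lines overlapped, between 136 and 157 CPM.

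C1S was lower in MMP2sh1 on each day. Its libraries in MMP2sh1, given above, lay below all control libraries on days −2, 0 and +2, with log2 fold changes of −0.64 ± 0.15 (adjusted p = 0.0043), −0.71 ± 0.17 (adjusted p = 0.0030) and −0.46 ± 0.13 (adjusted p = 0.013). The last call was lost without library 3 of the control (−0.40) or library 3 of MMP2sh1 (−0.38). In MMP2sh2, by contrast, C1S was at 0.23, 0.13 and 0.02 with SEs of 0.13, 0.16 and 0.12, none of them called (adjusted p = 0.30, 0.68 and 0.96).

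C1R was at 6.80, 8.43 and 8.08 CPM on day −2, 10.6, 10.3 and 11.1 on day 0 and 26.7, 23.5 and 20.6 on day +2 in MMP2sh1. Each MMP2sh1 library lay below each control library of its day, and the difference was called on day 0 (−0.57 ± 0.10, adjusted p = 0.00014) and day +2 (−0.39 ± 0.09, adjusted p = 0.0023), not on day −2 (−0.27 ± 0.13, adjusted p = 0.20). In MMP2sh2 C1R was at 9.03, 10.3 and 13.5, then 14.2, 13.1 and 13.6, then 26.5, 27.9 and 25.1, and its differences of 0.20, −0.21 and −0.22 were not called (adjusted p = 0.38, 0.19 and 0.11).

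C3 in confluent MMP2sh1 was at 0.493 of the control (−1.02 ± 0.22, adjusted p = 0.00088), with its 3 libraries (1.64 to 2.07 CPM) below those of the control (3.27 to 4.17). It was −0.53 ± 0.21 on day −2 (adjusted p = 0.11) and −0.25 ± 0.17 on day +2 (adjusted p = 0.39). In MMP2sh2 it was at 0.24 ± 0.19, 0.24 ± 0.18 and −0.39 ± 0.18 on the 3 days, none called (adjusted p = 0.49, 0.45 and 0.22).

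CFD in overconfluent MMP2sh1 was at 2.22, 2.67 and 2.27 CPM, below all control libraries of that day and at 0.569 of their level (−0.81 ± 0.20, adjusted p = 0.0056). In MMP2sh2 it was at 3.75, 3.29 and 3.82 (−0.21 ± 0.18, adjusted p = 0.64). CFB on day +2 was at −0.71 ± 0.36 in MMP2sh1 (adjusted p = 0.21) and at 0.83 ± 0.28 in MMP2sh2 (adjusted p = 0.061). CD59 was called lower in confluent MMP2sh1 (132, 135 and 135 CPM against 146, 151 and 146 in the control, −0.14 ± 0.04, adjusted p = 0.025). That call was lost without library 1 (−0.14) or 2 (−0.12) of the control or library 1 (−0.12) or 2 (−0.14) of MMP2sh1. CD55 was not called in any of the 6 comparisons, with log2 fold changes from −0.14 to 0.11.

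The direct comparison of the hairpin lines called 3 members on day −2, all lower in MMP2sh1 (10.7% of all genes, 5.01% higher and 5.69% lower). On day 0 it called 5, all lower (18.5% of all genes, 8.90% higher and 9.62% lower), and on day +2 it called 2 lower and 1 higher (7.86% of all genes, 4.59% higher and 3.27% lower). C1S was lower in MMP2sh1 on each day (−0.87 ± 0.16, −0.83 ± 0.16 and −0.48 ± 0.13, adjusted p = 0.00035, 0.00022 and 0.017), and C3 on days −2 and 0 (−0.78 ± 0.22, adjusted p = 0.020, and −1.26 ± 0.21, adjusted p = 2.1e-05). CFB on day +2 differed most, with 0.677 to 0.912 CPM in MMP2sh1 and 2.09 to 2.87 in MMP2sh2 (−1.54 ± 0.30, adjusted p = 0.0013). C1R was lower on days −2 (−0.48 ± 0.14, adjusted p = 0.029) and 0 (−0.35 ± 0.10, adjusted p = 0.011), and CFD (−0.36 ± 0.12, adjusted p = 0.026) and CD59 (−0.16 ± 0.04, adjusted p = 0.0057) on day 0. CD46 was higher in MMP2sh1 on day +2 (0.35 ± 0.05, adjusted p = 0.00010). Several of these calls were lost when 1 library was left out, in some cases with little change in the value. On day −2 that of C1R was lost without library 1 of MMP2sh1 (−0.39) or library 2 (−0.52) or 3 (−0.32) of MMP2sh2, and that of C3 without library 1 (−0.63) or 2 (−0.78) of MMP2sh1 or 2 (−0.62) or 3 (−0.72) of MMP2sh2. On day 0 that of C1R was lost without library 1 of MMP2sh2 (−0.32), and that of CFD without library 2 (−0.36) or 3 (−0.31) of MMP2sh1 or 2 (−0.35) or 3 (−0.35) of MMP2sh2. On day +2 that of C1S was lost without library 2 (−0.48) or 3 (−0.40) of MMP2sh1 or 1 (−0.47) or 2 (−0.47) of MMP2sh2. CFI did not pass the test between the lines on any day, with 0.20 ± 0.09 on day +2 (adjusted p = 0.21). CFD on day +2 was not called (−0.61 ± 0.20, adjusted p = 0.073), but was called lower in MMP2sh1 in 1 fit to all 27 libraries.

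Of 52 further complement genes that were listed, 51 were in the files and 10 of these had no read in any library, among them C1QA, C1QB and C1QC, the chains of the recognition molecule that carries C1r and C1s. For a count of 0 in a library, 3 counts were taken as the limit, which is 0.0893 CPM in the shallowest library. For the terminal pathway, C8A had no read, and C6 and C9 stayed at or below 0.0242 CPM and C8B at or below 0.0368 CPM in each group mean. C8G reached 0.175 CPM, C7 0.632 CPM and C5, whose cleavage starts pore assembly, 3.33 CPM. From day −2 to day +2, C5 was called higher in the control (1.61 ± 0.29, adjusted p = 3.8e-05), MMP2sh1 (3.38 ± 0.34, adjusted p = 1.2e-08) and MMP2sh2 (1.81 ± 0.35, adjusted p = 4.9e-05). C7 was not tested in the control, and its log2 fold changes were 2.93 ± 0.75 in MMP2sh1 and 3.69 ± 0.95 in MMP2sh2. Its group means ran from 0.0244 to 0.632 CPM, so that it passed the filter only through the day on which it was high. A call was therefore built in, and these 2 values describe C7 and support nothing more. During expansion of the control, 23 of the 51 passed the filter and 13 of these were called higher and 4 lower. The median log2 fold change was 1.11 against 0.03 over all genes tested, of which 28.1% were higher and 28.6% lower. In MMP2sh1, 15 were higher and 6 lower of 26 (median 0.87), beside 27.3% and 27.7% of all genes. In MMP2sh2, 16 were higher and 3 lower of 26 (median 1.01), beside 27.7% and 27.1%. Because a gene that passed the filter only where it was high had to differ, these counts describe the list and support nothing more.

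**Figure D4:**
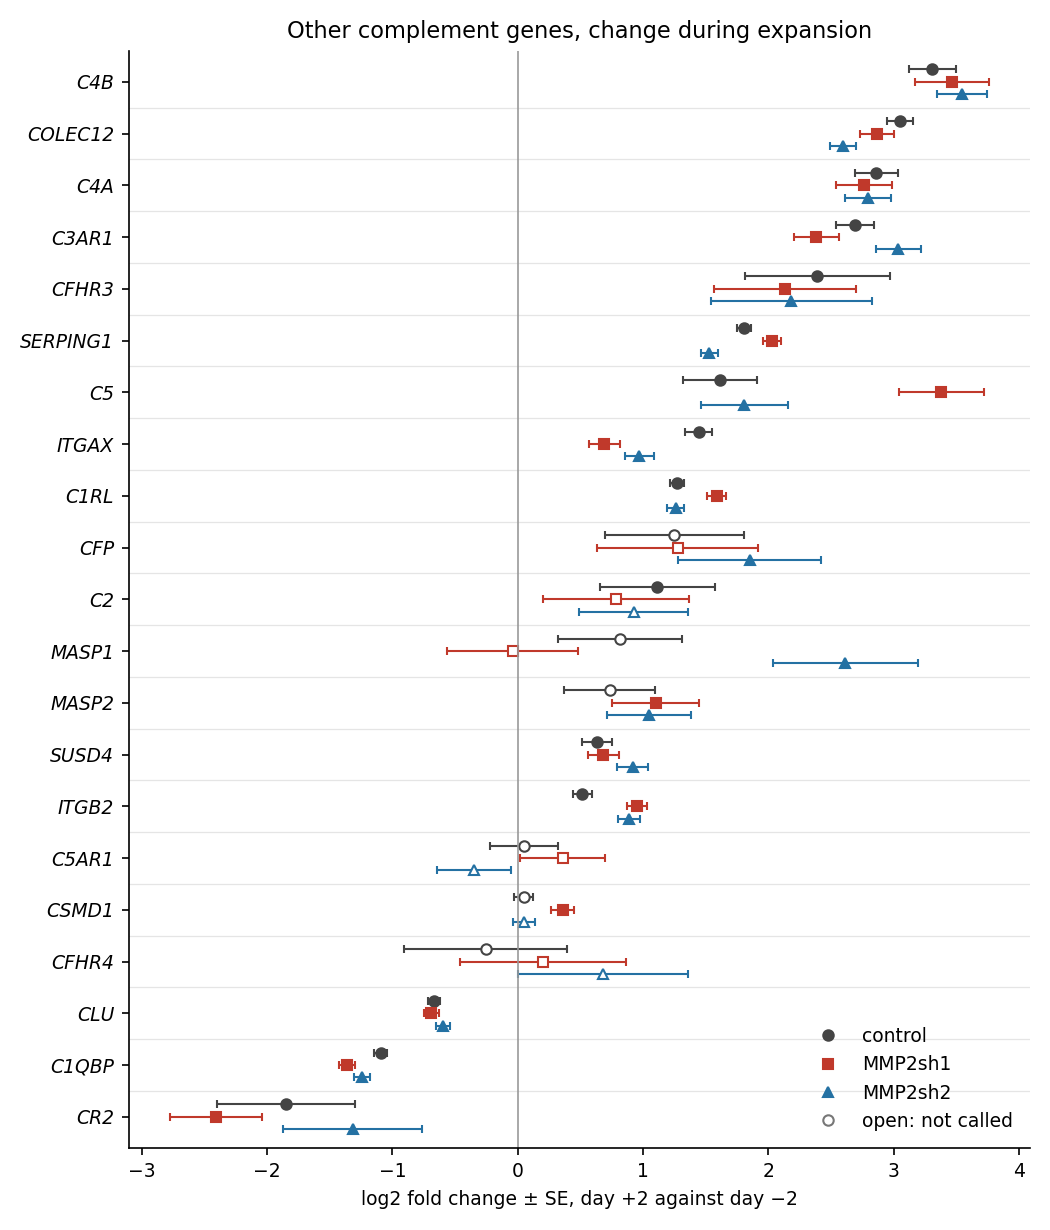
Log2 fold change from day −2 to day +2 with its SE (x axis) for 21 of the other complement genes tested in all 3 lines (y axis, ordered by the control value), with filled symbols for adjusted p under 0.05. Of these, 11 genes were called higher in each of the 3 lines. The 3 called lower in each were CLU, C1QBP and CR2, the last named after its value was seen. In single lines, 28.1% (control), 27.3% (MMP2sh1) and 27.7% (MMP2sh2) of all genes were higher. The shares lower were 28.6%, 27.7% and 27.1%. The share of all genes called alike in the 3 lines was not computed, so these counts describe the list and support nothing more.

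SERPING1, the inhibitor of C1r and C1s, was at 38.6 ± 1.70 CPM in the subconfluent control and at 136 ± 4.75 when overconfluent (1.81 ± 0.06, adjusted p = 9.3e-20). Against control on day +2, SERPING1 was higher in MMP2sh1 (0.20 ± 0.06, adjusted p = 0.020) and lower in MMP2sh2 (−0.25 ± 0.06, adjusted p = 0.0030). C1RL, a protease related to C1r, rose from 39.8 ± 0.0390 to 97.1 ± 4.69 CPM in the control and, against control, was called lower in MMP2sh1 on days −2 (−0.39) and 0 (−0.49) and in MMP2sh2 on day 0 (−0.22). Part of the exon length of C1R (14.3%) overlaps C1RL in the annotation used here.

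COLEC12, a scavenger receptor with a collectin domain, was called lower in both lines on each day, with log2 fold changes of −0.63, −1.17 and −0.79 in MMP2sh1 and of −0.57 and −0.97 on days −2 and 0 in MMP2sh2. On day +2 COLEC12 stood at 75.4 ± 8.28 CPM in the control, 43.6 ± 1.196 in MMP2sh1 and 37.6 ± 2.18 in MMP2sh2 (adjusted p = 1.6e-13), from 9.15 ± 1.68 in the control on day −2. C4B, one of a pair of near-identical genes with C4A whose counts are therefore uncertain, was called lower in MMP2sh1 on day 0 (−1.07 ± 0.25, adjusted p = 0.0020) and day +2 (−0.45 ± 0.13, adjusted p = 0.023), and rose in the control from 1.36 ± 0.260 to 13.4 ± 3.32 CPM. CLU, or clusterin, an inhibitor of the terminal complex and the most abundant gene of the list, was called higher in MMP2sh2 on each day (0.19, 0.16 and 0.26) and fell with expansion in each line (−0.67 in the control). C1QBP, a mitochondrial protein that also binds C1q, was called higher in both lines on day 0 (0.20 in MMP2sh1 and 0.17 in MMP2sh2). ITGB2, a subunit of the C3 receptors, was called lower in both on day −2 (−0.28 and −0.43) and higher in both on day 0 (0.67 and 0.29).

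Interleukin and interferon signals are known to raise complement transcription, and 2 lists of genes that respond to them were counted beside the members. Of 23 NF-kB and acute-phase genes, 18 were tested in the expansion of the control, with 6 higher and 4 lower. Over all genes tested there, 28.1% were higher and 28.6% lower. The calls against control are given beside the shares of all genes tested that were higher and lower. In MMP2sh1, 1 was higher and 2 lower of 17 on day −2 (5.42% and 6.14%). On day 0, 0 were higher and 4 lower of 16 (8.26% and 8.58%), and on day +2, 2 and 5 of 18 (7.68% and 7.11%). In MMP2sh2, 2 were higher and 0 lower of 18 on day −2 (4.71% and 6.33%). On day 0, 5 were higher and 3 lower of 17 (7.07% and 5.81%), and on day +2, 1 and 2 of 17 (2.89% and 3.43%). CEBPB, a factor that binds acute-phase promoters, was lower in MMP2sh1 on day 0 (−0.45 ± 0.05, adjusted p = 3.3e-08) and day +2 (−0.31 ± 0.06, adjusted p = 0.00066) and in MMP2sh2 on day 0 (−0.20 ± 0.05, adjusted p = 0.0062). SOCS3, a feedback inhibitor of cytokine signalling, was lower in MMP2sh1 on each day (−0.25, −0.39 and −0.32) and in MMP2sh2 on day 0 (−0.37). STAT3 was lower in MMP2sh1 on day 0 alone among the 6 comparisons (−0.21), and SOD2 on day +2 alone (−0.29). IL6 did not exceed 0.498 CPM in any group mean.

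Of 15 interferon-gamma responsive genes, 13 were tested in the expansion of the control, with 7 higher and 0 lower at an adjusted p under 0.05. Over all genes tested there, 28.1% were higher and 28.6% lower. PSMB8, a subunit of the immunoproteasome, rose by 0.54 ± 0.06 in the control (adjusted p = 8.5e-09), and TAP1, a peptide transporter for antigen presentation, by 0.27 ± 0.07 (adjusted p = 0.0024). Against control, 0 to 1 genes of this list were called higher and 0 to 3 lower in each of the 6 comparisons. Over all genes tested, the shares in these comparisons ranged from 2.89% to 8.26% higher and from 3.43% to 8.58% lower. PSMB8 was higher on day −2 in MMP2sh1 (0.25) and MMP2sh2 (0.23) and lower on day +2 in MMP2sh1 (−0.24), and TAP1 was lower in confluent MMP2sh1 (−0.31). CXCL10 and IDO1 stayed at or below 0.0319 CPM in each group mean.

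Over the 9 group means of log2 CPM, which share libraries, lines and days, C1R and CFI ran together (Pearson r = 0.96), as did CFD and CD55 (r = 0.94) and C1S and C3 (r = 0.88), while CFD ran opposite to CD46 (r = −0.99). CFB had no r above 0.46 with another member. Among 22107 genes, that most like CFI was HHIP (r = 0.997), that most like C1R was STAT2 (r = 0.998), and those most like CD46, CFD, CD55, CD59, C1S, C3 and CFB were AMOTL1 (0.992), EBPL (0.995), FASTKD5 (0.993), PDLIM4 (0.991), LRRC8A (0.982), CDC42EP4 (0.947) and CTD-2666L21.2 (0.906). These are descriptions over 9 points.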

How the data were processed

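Poly(A) RNA libraries of 3 U2OS lines at 3 densities were analysed, with 3 libraries per group (27 in all). The authors removed adapters (Trim Galore 0.6.0), mapped reads on hg19 (STAR 2.7.3a) and counted those in exons without strand (HTSeq 2.0.0). The deposited values are raw read counts per gene symbol, and 5 summary lines that name no gene (16.8 to 19.1% of each library) were left out. The annotation release was not given in the sources used here, so positions and lengths come from GENCODE on GRCh37.

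From the deposited counts, levels were computed as CPM with TMM factors. For each of 20 comparisons, edgeR 4.0.16 (quasi-likelihood F test, R 4.3.3) was run on the libraries compared, after filterByExpr (minimum count 10, total 15). P-values were adjusted over all genes tested, and adjusted p under 0.05 was a call. Alternatives were DESeq2 1.42.0, 1 fit to all 27 libraries, median-of-ratios scaling, no filter, at least 10 counts in every library, a replicate block and leaving out each library. The p-values measure the spread between these libraries only.

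Named were all members, MMP2, other complement genes called in 1 direction in at least 2 of the 6 comparisons with control, and the 5 most abundant of them. Of each cytokine list, the 3 most abundant and any called on each day in 1 line were named. All 10 mesenchymal and osteoblast markers were named. Likeness was Pearson's r over group means of log2 CPM (prior count 2). The members and lists were chosen with earlier results of these data known. Genes at or near 0 (C1QA, C1QB, C1QC, C6, C8A, C8B, C9, IL6, CXCL10, IDO1) and C5, C7, C8G, CR2, KRT8 and KRT18 were named after their values were seen. Results for some genes on these lists are not reported here.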

Additional observations from a re-analysis of the deposited data

Results flagged for a closer look

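The hairpin lines differed from each other in 11 member results, by the direct test between them in edgeR. In subconfluent cells the log2 difference of MMP2sh1 from MMP2sh2 was −0.48 for C1R (adjusted p = 0.029), −0.87 for C1S (adjusted p = 0.00035) and −0.78 for C3 (adjusted p = 0.020). In confluent cells it was −0.35 for C1R (adjusted p = 0.011), −0.83 for C1S (adjusted p = 0.00022), −1.26 for C3 (adjusted p = 2.1e-05), −0.36 for CFD (adjusted p = 0.026) and −0.16 for CD59 (adjusted p = 0.0057). In overconfluent cells it was −0.48 for C1S (adjusted p = 0.017), −1.54 for CFB (adjusted p = 0.0013) and 0.35 for CD46 (adjusted p = 0.00010). MMP2 itself was lower in MMP2sh1 than in MMP2sh2 at each density, and its part in these differences was not tested.

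The change of CD46 from subconfluent to overconfluent cells differed from that of the control in both hairpin lines, by the interaction term, at 0.71 in MMP2sh1 (adjusted p = 2.0e-07) and 0.42 in MMP2sh2 (adjusted p = 0.00072).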

How the results depend on the processing

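Over the settings that kept all libraries, 1230 of 1260 values kept their direction and side of the threshold and 0 changed direction, while 10 lost their call and 20 gained one. All 81 levels stayed within 1 SD under median-of-ratios factors. The cause of the changes that follow was not tested. In 1 fit to all 27 libraries, edgeR and DESeq2 each called 2 members lower in subconfluent MMP2sh1 (CFI added to 1 as reported) and 1, CFD, in the MMP2sh1 interaction (0 as reported). Between the overconfluent hairpin lines they also called CFD lower in MMP2sh1 (edgeR, adjusted p = 0.013, and DESeq2, 0.010). Members lower in subconfluent MMP2sh2 (0 as reported) numbered 1, CD46, with DESeq2 on its own libraries, with edgeR on all 27 or when each library had to hold 10 counts, and 2, CD46 and CFI, with DESeq2 on all 27. Members lower at confluence in MMP2sh2 (1 as reported) numbered 2, CD59 being added, with DESeq2 on its own libraries, edgeR on all 27 or median-of-ratios scaling, and 3, with CD55 as well, with DESeq2 on all 27. The lost calls were C3 in MMP2sh1 at confluence (DESeq2, adjusted p = 0.0503, and no filter, 0.058), C1R in MMP2sh2 at confluence (DESeq2 on its own libraries, 0.079, and on all 27, 0.054), CD59 in confluent MMP2sh1 against control (no filter, 0.061), the net rise of C1S in the control (DESeq2 on all 27, 0.062), CFD in the control at confluence (DESeq2, 0.067, and the block below) and CFD between the confluent hairpin lines (edgeR, 0.070, and DESeq2, 0.081, on all 27).

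With 1 library left out, counts of members called lower ranged from 0 to 1 in subconfluent MMP2sh2 against control and in both interactions, 1 to 3 and 1 to 2 between the hairpin lines on days −2 and +2, 1 to 4 for the control at confluence, 1 to 5 for MMP2sh1 and 1 to 2 for MMP2sh2 at confluence, and 2 to 3 for MMP2sh1 and for MMP2sh2 over the whole expansion. Members called higher at confluence in MMP2sh2 ranged from 2 to 3. None of the results whose direction changed with 1 library left out was called. Against control these were CFD in subconfluent MMP2sh1 (−0.30 to 0.087) and, in MMP2sh2, CFD (−0.056 to 0.33) and CD59 (−0.0063 to 0.058) on day −2, C1S (−0.0049 to 0.28) and CFB (−0.040 to 0.17) on day 0 and C1S (−0.028 to 0.082) on day +2. Between the hairpin lines they were CFB (−0.37 to 0.16), CFI (−0.54 to 0.035), CD55 (−0.042 to 0.044) and CD59 (−0.044 to 0.020) on day −2, CFI (−0.055 to 0.19), CD46 (−0.011 to 0.065) and CD55 (−0.044 to 0.061) on day 0, and C3 (−0.012 to 0.31) and CD59 (−0.0094 to 0.029) on day +2. CFB in the control at confluence ranged from −0.046 to 0.21, and the interactions of CFI (−0.21 to 0.33) and CD55 (−0.0083 to 0.086) in MMP2sh1 and of CD59 in MMP2sh2 (−0.0030 to 0.060) also changed sign.

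No pairing by replicate number was seen, as none of 54 pair correlations exceeded 0.1 (−0.025 to 0.036). These gave each gene equal weight, weak ones included, so that a small shared effect could have been missed. With the number as a replicate block, 1 member call was lost, CFD in the control at confluence (−0.36, adjusted p = 0.055). The block called fewer genes in overconfluent MMP2sh1 against control, at 2126 (2854 without it). Between the subconfluent hairpin lines it called more, at 2974 (2009 without it). Over all genes that comparison called up to 3239 under the other settings, and fell to 1208 with 1 library left out. Leaving out 1 library also lowered the counts, by over 1.5 times, against control to 1321 in subconfluent MMP2sh1 (2184 with all), and in MMP2sh2 to 728 on day −2 (2080), 1509 on day 0 (2456) and 679 on day +2 (1222), between the overconfluent hairpin lines to 885 (1527), and in the interactions to 934 for MMP2sh1 (1520) and 541 for MMP2sh2 (1029).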
